A study of Mus musculus with 30 samples.

Results

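The Wnt ligands described here are 10 genes, Wnt3, Wnt3a, Wnt4, Wnt5a, Wnt5b, Wnt6, Wnt7a, Wnt7b, Wnt8a and Wnt11, taken by name from the 54134 rows of a count table of mouse embryonic stem cells (ESCs) differentiated towards neuromesodermal progenitors (NMPs), the posterior cells that supply both spinal cord and paraxial mesoderm. The question was how their RNA levels changed over 5 stages, whether they differed between wildtype and Nr6a1-/- cells, and which of them changed when the growth factor Gdf11 was added. All cells were of the ES-Bruce4 line. Cells at d2 had received FGF2 for 48 h, cells at d2.5 and d3 had then received CHIR for 12 h and 24 h, and d3 cells were kept for another 24 h either in FGF2 and CHIR (d4) or in FGF2, CHIR and Gdf11 (d4G). Each of the 10 groups had 3 libraries. CHIR99021 inhibits the kinase GSK3, so after d2 every culture of either genotype had its β-catenin pathway switched on below the level of ligand and receptor. The Nr6a1-/- cells were a lone clone with a separate exon 4 deletion on each allele that takes out the DNA-binding domain, so that clone and genotype cannot be told apart. The cells had been grown on feeder fibroblasts and were depleted of them before differentiation.

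Wnt proteins are lipid-modified, secreted signals that bind Frizzled receptors. With LRP5 or LRP6 as co-receptor they stabilise β-catenin and switch on TCF/LEF target genes, the canonical branch, whereas with Ror or Ryk co-receptors they act on cell polarity and movement without β-catenin. In the mouse embryo Wnt3 is needed to form the primitive streak, Wnt3a maintains the progenitors of the tail bud, Wnt8a overlaps with both, and Wnt5a is needed for posterior outgrowth. Gdf11, a TGFβ-family ligand that acts through Smad proteins, promotes the change from trunk to tail formation, and Nr6a1 is an orphan nuclear receptor.

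Promoter windows were available for 7 of the 10 genes from RefSeq (GRCm38.p6), 10 windows in all because Wnt5b and Wnt11 have several starts, and Wnt5a, Wnt7b and Wnt8a had no entry. The 250 bases before the start are shown for the 4 genes whose responses are set against each other below: Wnt3, which Gdf11 raised in either genotype, and Wnt3a, Wnt6 and Wnt7a, whose response to Gdf11 differed between the genotypes. Each reads 5′ to 3′ on the strand of the gene, and capitals mark the letters of a searched motif.
Wnt3 (chr11:103773925-103774174): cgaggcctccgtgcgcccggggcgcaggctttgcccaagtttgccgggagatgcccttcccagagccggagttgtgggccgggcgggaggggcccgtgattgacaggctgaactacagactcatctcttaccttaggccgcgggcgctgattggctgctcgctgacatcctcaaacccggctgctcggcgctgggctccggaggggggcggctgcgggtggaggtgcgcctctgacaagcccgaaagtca
Wnt3a (chr11:59290752-59291001): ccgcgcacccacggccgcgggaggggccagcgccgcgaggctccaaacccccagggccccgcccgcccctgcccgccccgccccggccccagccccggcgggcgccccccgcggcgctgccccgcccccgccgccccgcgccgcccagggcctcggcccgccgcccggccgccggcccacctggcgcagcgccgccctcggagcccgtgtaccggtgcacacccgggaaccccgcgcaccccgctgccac
Wnt6 (chr1:74771642-74771891): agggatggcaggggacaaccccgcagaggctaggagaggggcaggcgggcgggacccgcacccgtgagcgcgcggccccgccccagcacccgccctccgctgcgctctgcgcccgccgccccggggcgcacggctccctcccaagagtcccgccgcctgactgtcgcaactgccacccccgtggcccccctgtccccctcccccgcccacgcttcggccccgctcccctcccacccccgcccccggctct
Wnt7a (chr6:91411354-91411603): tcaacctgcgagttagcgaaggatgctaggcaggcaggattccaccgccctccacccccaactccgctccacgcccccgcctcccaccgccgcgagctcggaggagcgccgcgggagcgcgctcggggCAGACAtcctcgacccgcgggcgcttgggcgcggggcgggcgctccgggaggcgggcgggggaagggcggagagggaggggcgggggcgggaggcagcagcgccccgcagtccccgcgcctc

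These windows were rich in G and C, which made up 68% of the Wnt3 window, 87.6% of Wnt3a, 79.6% of Wnt6 and 77.6% of Wnt7a, against a median of 52.4% over 32851 promoters. A TCF/LEF core (CTTTGA), an extended half-site of the kind Nr6a1 binds (TCAAGGTCA) and a Smad box (CAGACA) were searched for on both strands, none of which contains another. Among all promoters of this length 13.8%, 0.387% and 17.1% held them. The Smad box occurred once, at 122 bases before the Wnt7a start, and the TCF/LEF core in a Wnt5b window and a Wnt11 window, at 71 and 50 bases before the start. The Nr6a1 half-site was in none of the 10 windows, which says only that these letters are not in these bases.

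The genes lie on 8 chromosomes (mm10, GRCm38 coordinates). The group referred to below as canonical-type held Wnt3 (chr11:103774150-103817957, plus strand), Wnt3a (chr11:59248033-59290752, minus strand) and Wnt8a (chr18:34542313-34548273, plus strand). Wnt4 (chr4:137277489-137299726, plus strand), Wnt5a (chr14:28504750-28527448, plus strand), Wnt5b (chr6:119432531-119544347, minus strand) and Wnt11 (chr7:98835112-98855195, plus strand) were grouped as non-canonical-type. Wnt6 (chr1:74771892-74785322, plus strand), Wnt7a (chr6:91363981-91411363, minus strand) and Wnt7b (chr15:85535437-85582473, minus strand), which are used in either branch, formed the last group. The annotation places an antisense gene over Wnt5a, Wnt6 and Wnt7b, Fbxl14 on the other strand of the Wnt5b locus, and a pseudogene in Wnt11. Whether the counting used strand is not given in the sources used here. Beside 2833 counts for Fbxl14, the antisense genes Gm2670 (Wnt5a), Gm29539 (Wnt6) and AU022754 (Wnt7b) drew 9, 4 and 2 counts over the 30 libraries.

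The libraries held 1570714 to 3688197 counts with a median of 2366002. Levels are given as CPM, counts scaled to the size of the library and by edgeR's TMM factors, and 3 counts, the limit that a count of 0 allows, came to 0.813 to 1.91 CPM before that scaling; such limits cover counting error only. Markers went with the labels: Fgf5, an epiblast gene, averaged 32.1 ± 5.17 CPM (SD, n = 3) in wildtype cells at d2 and 0.455 ± 0.485 CPM at d3, and T and Sox2, which together mark NMPs, averaged 309 ± 11.2 and 78.5 ± 3.79 CPM in wildtype cells at d3. The library labelled wildtype d4 replicate 2 stood apart. Its 8 epiblast markers summed to 747 CPM against 104 and 93.1 CPM in replicates 1 and 3. Ligand results that use wildtype d4 cells are thus also given without it where a call changed or a called value moved by over 1.5 times. Calls on other genes are not given without it. The reads came from the 3′ end of transcripts, which leaves exon 4 of Nr6a1 out of view, so the deletion could not be checked, and at d4 Nr6a1 itself averaged 97.6 ± 1.59 CPM in wildtype, against 223 ± 33.0 CPM in the mutant clone.

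Of the 10 ligands 7 passed the filter (over 10 counts and over 2 CPM in 2 or more libraries of any 1 group) and were tested with 12149 genes in edgeR's quasi-likelihood model, with calls at a Benjamini-Hochberg FDR under 0.05. A ligand that passed only through the group in which it is high had to differ somewhere, so counts below describe the tested ligands and not all 10. Wnt4, Wnt11 and Wnt7b drew 130, 87 and 15 counts in all and did not pass. In such mixed cultures, fewer cells making a transcript and less of it per cell cannot be told apart.

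**Figure D1:**
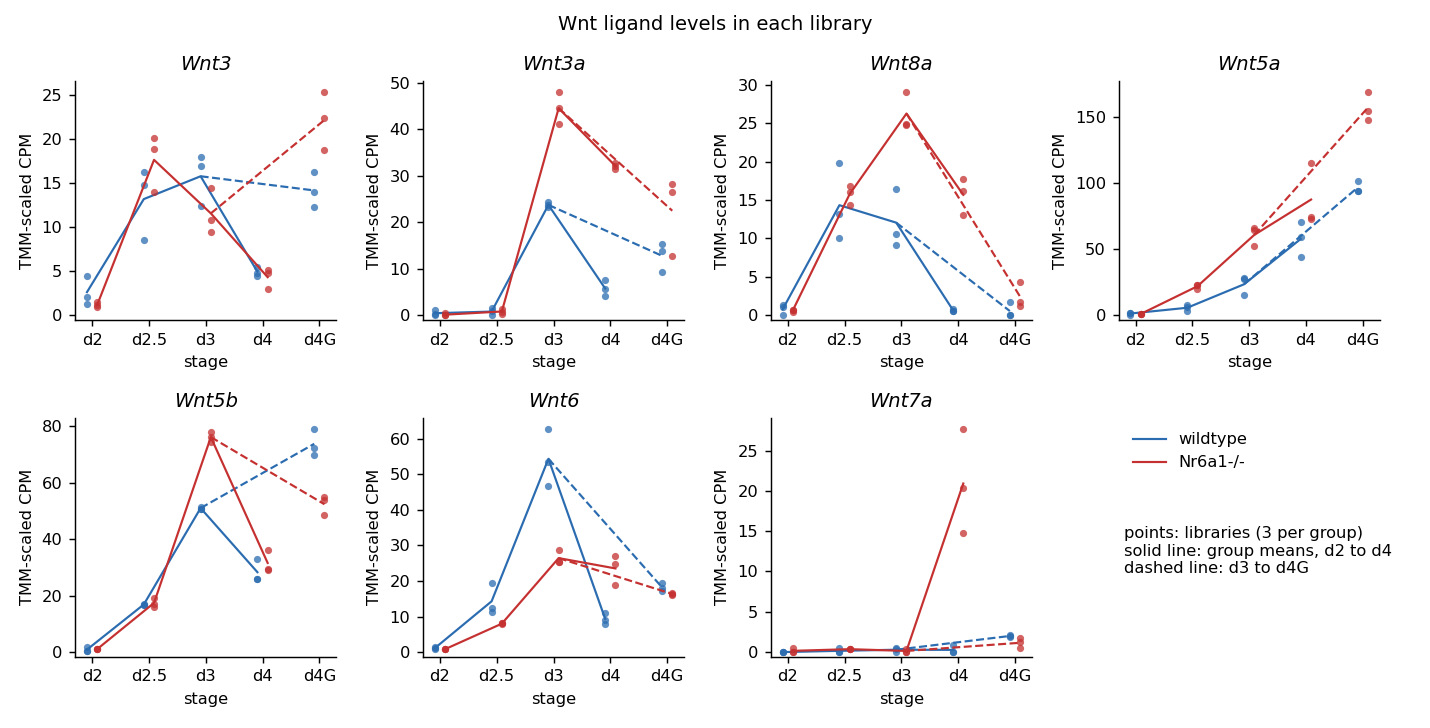
TMM-scaled CPM of the 7 tested Wnt ligands in each of the 30 libraries (points) at 5 stages, wildtype in blue and Nr6a1-/- in red, with group means joined by a solid line from d2 to d4 and a dashed line from d3 to d4G. The 3 Nr6a1-/- libraries at d4 lie above every wildtype library for Wnt3a, Wnt8a, Wnt5a, Wnt6 and Wnt7a.

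At d2 the ligands were almost silent. The mean of each tested ligand lay between 0 and 2.64 CPM in wildtype and between 0.157 and 1.19 CPM in Nr6a1-/- cells. At 12 h of CHIR, 5 of the 7 were called higher in wildtype cells (Wnt3, Wnt8a, Wnt5a, Wnt5b and Wnt6) and the same 5 in Nr6a1-/- cells, with none called lower. Of all genes tested, 13.3% were called higher and 12.1% lower over this step in wildtype, and 12.9% and 11.2% in Nr6a1-/- cells. No culture was kept without CHIR after d2, so the effect of CHIR and that of time cannot be told apart in any of these steps. From d2.5 to d3, 4 ligands rose in wildtype (Wnt3a, Wnt5a, Wnt5b and Wnt6), where 5.91% of genes were higher and 5.56% lower. In Nr6a1-/- cells these 4 and Wnt8a rose, against 7.43% and 8.45% of genes. The change from d2 to d3 differed between the genotypes for 0 of 7 ligands by edgeR, with 0 at an unadjusted p under 0.05 and 0 by DESeq2. The background for that test was 1.19% of genes higher and 1.09% lower, and its intervals were wide, since most d2 levels were near the limit that a count of 0 allows.

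From d3 to d4 in wildtype cells, 5 ligands fell (Wnt3, Wnt3a, Wnt8a, Wnt5b and Wnt6) and Wnt5a rose, where 9.77% of genes were higher and 11.3% lower. In Nr6a1-/- cells 3 fell (Wnt3, Wnt8a and Wnt5b) and 2 rose (Wnt5a and Wnt7a), against 13.6% and 12.3% of genes. The change itself differed for 4 ligands in the full set of libraries, each less negative or more positive in Nr6a1-/- cells (Wnt3a, Wnt8a, Wnt6 and Wnt7a), where 2.97% of genes were higher in this sense and 2.75% lower. Without wildtype d4 replicate 2 the count was 5, the addition being Wnt5a, whose change then differed by -0.91 (Nr6a1-/- less wildtype, FDR = 0.0278). Wnt7a passed the filter only through the Nr6a1-/- d4 libraries, so its rise and its difference here were built in by the filter.

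Between the genotypes at each stage, 0 of 7 ligands were called at d2 by edgeR, with 1 (Wnt3) at an unadjusted p under 0.05 and 0 by DESeq2, against a background of 1.35% of genes higher and 2.72% lower in the mutant. At d2.5, 1 was higher and 1 lower, against 2.86% and 3.59% of genes. At d3, 4 were higher and 1 lower, against 4.47% and 6.3%. At d4, 5 were higher and 0 lower, against 9.7% and 9.18%, and without wildtype replicate 2 there were 4. Of these Wnt7a passed the filter only through the Nr6a1-/- d4 libraries, so its call at d4 was built in by the filter, which leaves 4 calls, or 3 without that library. At d4G, 2 were higher and 1 lower, against 3.28% and 4.63%. The median log2 fold change of the 7 was 0.58 at d3 and 1.35 at d4, with 0.00 and 0.02 over all genes tested. The d4 median includes Wnt7a at 5.81, a value built in by the filter.

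**Figure D2:**
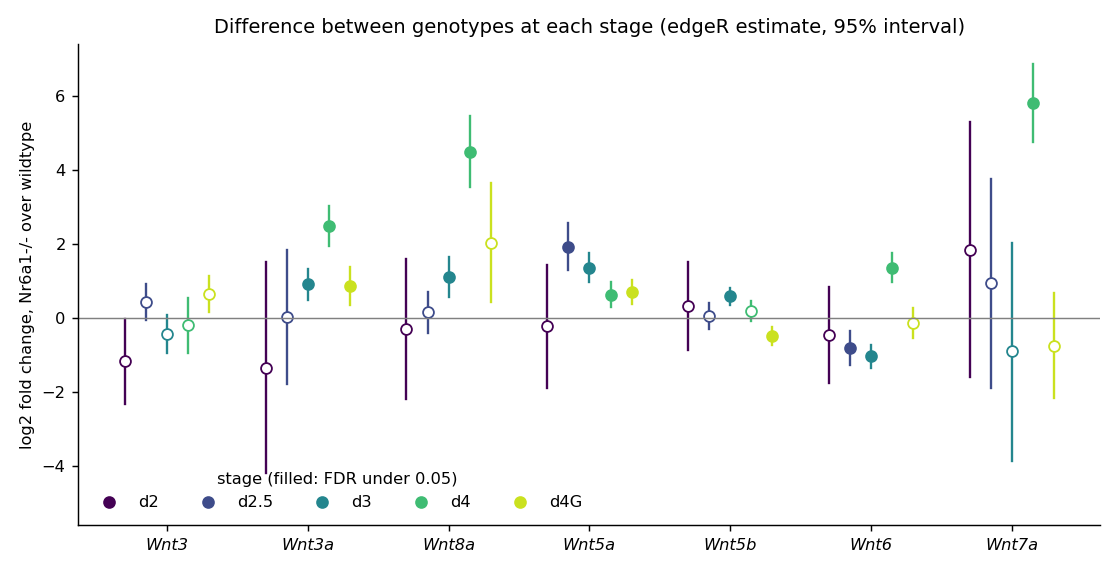
Log2 fold change of Nr6a1-/- over wildtype cells for the 7 tested Wnt ligands at each of 5 stages, as edgeR estimates with 95% intervals, filled where the FDR was under 0.05. Wnt5a lies above 0 from d2.5 to d4G, while Wnt6 passes from -1.04 at d3 to 1.35 at d4.

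Gdf11 raised 6 of the 7 ligands in wildtype cells, Wnt8a being the exception, and lowered 0, while 14.3% of all genes rose and 14.5% fell. In Nr6a1-/- cells it raised 3 (Wnt3, Wnt5a and Wnt5b) and lowered 2 (Wnt8a and Wnt7a), against 8.45% and 9.59% of genes. In the full set of libraries the response was lower in Nr6a1-/- cells for 4 ligands (Wnt3a, Wnt5b, Wnt6 and Wnt7a) and higher for 0, against 1.49% and 1.17% of genes. Without wildtype d4 replicate 2 the Wnt5b call on the genotype difference in response was lost (FDR = 0.084). Since Wnt7a passed the filter only through the Nr6a1-/- d4 libraries, its calls in Nr6a1-/- cells and in this difference were built in by the filter. The wildtype d4 libraries enter the Gdf11 response, the genotype difference at d4 and the change from d3 to d4 alike, as do the Nr6a1-/- d4 libraries, so these results are not independent of each other. By the labels, 3 index sequences occurred in both wildtype d4 and wildtype d4G libraries 1 in both Nr6a1-/- d4 and d4G libraries, and 2 in both Nr6a1-/- d3 and d4 libraries. Which libraries were pooled is not given in the sources used here. The index was added at poly(A) priming, before the samples were pooled and amplified. Libraries with the same index could thus not share a pool. The part of pool in comparisons of these groups was not tested.

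**Figure D3:**
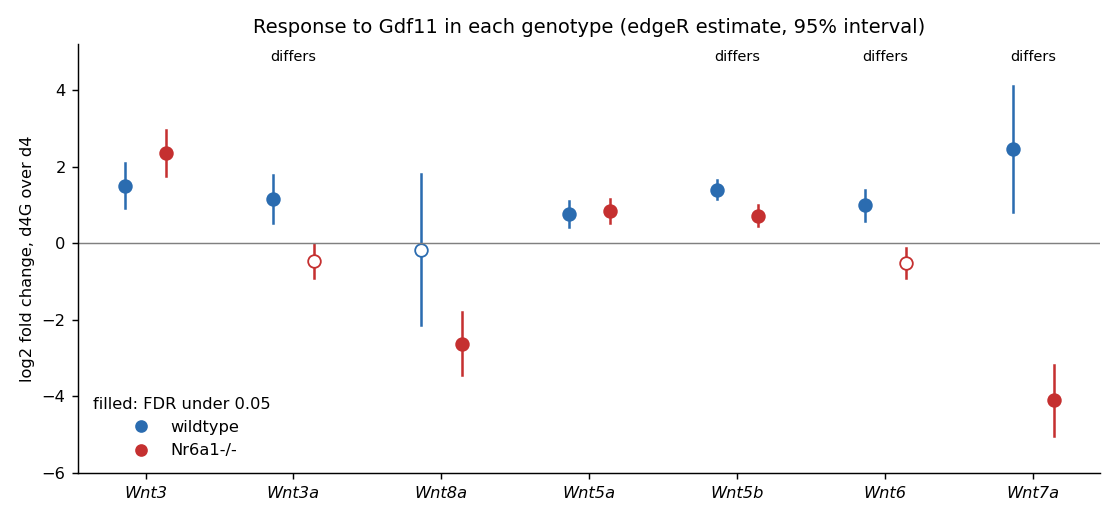
Log2 fold change of d4G over d4 cells in wildtype (blue) and Nr6a1-/- (red) for the 7 tested Wnt ligands, as edgeR estimates with 95% intervals, filled where the FDR was under 0.05, with "differs" over the 4 ligands whose response differed between the genotypes in the full set of libraries. Wnt3 and Wnt5a lie above 0 in both, and Wnt7a lies above 0 in wildtype and at -4.10 in Nr6a1-/-.

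Wnt3, the canonical ligand of the primitive streak, was higher after 12 h in CHIR and was raised by Gdf11, with no difference between the genotypes that passed the test at any stage. In wildtype cells it was counted at 1.31, 2.12 and 4.47 CPM at d2, at 8.58, 14.7 and 16.2 CPM at d2.5 and at 16.9, 17.9 and 12.4 CPM at d3. It fell to 4.79, 5.53 and 4.50 CPM at d4, and with Gdf11 was at 13.96, 16.2 and 12.2 CPM. The d4 libraries lay below all d3 and all d4G libraries. The rise from d2 to d2.5 was 2.20 ± 0.34 on the log2 scale (SE, FDR = 6.22e-06), the fall from d3 to d4 was -1.64 ± 0.27 (FDR = 2.16e-05), and the Gdf11 response was 1.501 ± 0.28 (FDR = 6.75e-05).

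Nr6a1-/- cells gave Wnt3 at 18.8, 14 and 20.03 CPM at d2.5, 14.4, 9.41 and 10.8 CPM at d3, and 3.03, 4.84 and 5.11 CPM at d4. With Gdf11 it was at 18.8, 22.3 and 25.3 CPM. These d4G libraries were all above the wildtype ones, yet the log2 difference of 0.65 ± 0.23 had an FDR of 0.0808. Gdf11 raised Wnt3 by 2.35 ± 0.29 (FDR = 7.60e-08), and the responses of the genotypes differed by 0.85 with a 95% interval of -0.04 to 1.73 (FDR = 0.345). No genotype call was made for Wnt3 under any alternative processing.

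Wnt3a, the tail bud ligand, was the latest of the canonical-type genes to appear and was higher in Nr6a1-/- cells from d3 onwards. It was at most 1.52 CPM in any library of either genotype at d2 and d2.5. At d3 the wildtype libraries held 23.6, 24.4 and 23.2 CPM and the Nr6a1-/- libraries 44.6, 41.0 and 48.0 CPM. The groups did not overlap, and the log2 fold change was 0.91 ± 0.20 (FDR = 0.00205). By d4 wildtype cells were down to 5.67, 4.14 and 7.505 CPM while Nr6a1-/- cells held 32.0, 31.4 and 32.8 CPM. That difference, 2.47 ± 0.26 (FDR = 1.78e-09), is 5.55-fold. The fall from d3 to d4 was -2.04 ± 0.27 in wildtype (FDR = 3.55e-07), whereas the change in Nr6a1-/- cells was -0.47 ± 0.19 (FDR = 0.0678), and the changes differed by 1.56 ± 0.33 (FDR = 0.00267).

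After Gdf11 the wildtype libraries held Wnt3a at 15.3, 13.8 and 9.28 CPM and the Nr6a1-/- libraries at 26.4, 12.7 and 28.3 CPM. Replicate 2 of the Nr6a1-/- group lay within the wildtype range. Gdf11 raised Wnt3a in wildtype cells by 1.15 ± 0.30 (FDR = 0.00337), its log2 change in Nr6a1-/- cells was -0.47 ± 0.22 (FDR = 0.138), and the difference of the responses was -1.61 ± 0.37 (FDR = 0.00832). The genotype difference at d4G was 0.86 ± 0.25 (FDR = 0.0234), a call that was lost when only these groups were fitted and without any 1 of 4 libraries, with the FDR rising to 0.207 without Nr6a1-/- replicate 3.

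Wnt8a rose early and was almost gone from wildtype cells by d4. In wildtype it was at 10, 19.8 and 13.2 CPM at d2.5 and 9.17, 10.6 and 16.4 CPM at d3, and only 2 counts were found in each d4 library. Nr6a1-/- cells held 16.9, 16.1 and 14.3 CPM at d2.5, 24.9, 24.8 and 29.0 CPM at d3, and 17.8, 13.1 and 16.2 CPM at d4. The genotypes overlapped at d2.5 and were fully apart at d3 and d4. The log2 difference was 0.14 ± 0.27 at d2.5 (FDR = 0.835) and 1.10 ± 0.26 at d3 (FDR = 0.00315). At d4 106 counts against 6 gave a pooled ratio of 24.3 (95% counting interval 10.8 to 67.7; FDR = 1.29e-09 in the model).

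Gdf11 left Wnt8a at 0, 0 and 4 counts in wildtype cells. In Nr6a1-/- cells it fell to 9, 2 and 4 counts, a log2 change of -2.63 ± 0.40 (FDR = 3.82e-06) in which the d4 and d4G libraries did not overlap. The genotype difference that remained at d4G, 15 counts against 4, had an FDR of 0.112. It was called without wildtype d4G replicate 3, which held all 4 of those counts (FDR = 0.00824). Whether the responses to Gdf11 differ could not be seen at this depth, since the wildtype level was under the limit that a count of 0 allows before and after (difference -2.46, 95% interval -4.96 to 0.05). A pair of calls on Wnt8a were weak. Its rise from d2.5 to d3 in Nr6a1-/- cells (0.74 ± 0.24, FDR = 0.028) was lost by DESeq2 and without any of 5 libraries, up to an FDR of 0.107. Its fall from d3 to d4 there (-0.74 ± 0.24, FDR = 0.0228) was lost without any of 3 libraries, with an FDR of 0.0535 to 0.1.

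Wnt5a, the non-canonical ligand of posterior outgrowth, was called higher at every step and was the only ligand called higher in Nr6a1-/- cells at 4 stages. Wildtype libraries held 6.19, 7.62 and 3.54 CPM at d2.5, 15.4, 27.2 and 28.0 CPM at d3, and 70.6, 43.9 and 59.1 CPM at d4. Nr6a1-/- libraries held 23.0, 19.96 and 23.2 CPM at d2.5, 64.6, 52.2 and 65.8 CPM at d3, and 115, 73.0 and 74.6 CPM at d4. At each of these stages every Nr6a1-/- library lay above every wildtype library. The log2 difference was 1.92 ± 0.30 at d2.5 (FDR = 4.51e-05), 1.36 ± 0.19 at d3 (FDR = 4.74e-06) and 0.62 ± 0.16 at d4 (FDR = 0.00499). The call at d4 was lost without wildtype replicate 2, the library with epiblast markers (0.45, FDR = 0.0688), and without Nr6a1-/- replicate 1, which held the 115 CPM (0.36, FDR = 0.114). The rise from d2 to d2.5 in wildtype (2.14, FDR = 0.00445) was lost without d2 replicate 3 (FDR = 0.0597), and the rise from d3 to d4 in Nr6a1-/- cells (0.52, FDR = 0.0149) without d3 replicate 2 (FDR = 0.0893) or d4 replicate 1 (0.26, FDR = 0.259).

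Gdf11 raised Wnt5a in both genotypes. Wildtype d4G libraries held 102, 94.2 and 94.0 CPM and Nr6a1-/- ones 148, 169 and 154 CPM. The groups stayed apart, with a difference of 0.70 ± 0.15 (FDR = 0.00164). The response was 0.76 ± 0.16 in wildtype (FDR = 3.65e-04) and 0.84 ± 0.15 in Nr6a1-/- cells (FDR = 9.33e-05), and the difference of the responses was 0.08 with a 95% interval of -0.39 to 0.54 (FDR = 0.921). Wnt5a is also made by fibroblasts. The 12 feeder fibroblast markers, of which Lum and Fap were at 0 in both genotypes at d2.5, summed at that stage to 37.4 to 43.2 CPM in wildtype, against 51.0 to 57.2 CPM in the mutant, and to 69.2 to 75.3 against 74.7 to 97.1 CPM at d3, where Lum and Fap were again at 0. At d4 the sums were 46.1 to 48.0 and 42.6 to 45.5 CPM, with S100a4 at 0 in both, Lum at 0 in wildtype and Fap at 0 in Nr6a1-/- cells, the wildtype range above the Nr6a1-/- range. At d4G they were 47.9 to 59.0 and 56.8 to 64.3 CPM, with Lum, Fap and S100a4 at 0 in both. Their part in the Wnt5a differences was not tested.

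Wnt5b, the close paralogue of Wnt5a, peaked at d3 without Gdf11. Wildtype libraries held 17.1, 16.8 and 16.7 CPM at d2.5, 50.7, 51.6 and 50.8 CPM at d3, and 33.1, 26.0 and 25.8 CPM at d4. Nr6a1-/- libraries held 16.9, 19.3 and 16.1 CPM at d2.5, 76.3, 77.8 and 74.4 CPM at d3, and 29.0, 29.5 and 36.2 CPM at d4. The genotypes were apart only at d3 among these stages, by 0.58 ± 0.11 (FDR = 5.79e-04), and at d4 the difference was 0.18 with a 95% interval of -0.10 to 0.46 (FDR = 0.386).

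With Gdf11 the order turned. Wildtype libraries held Wnt5b at 79.1, 72.3 and 70.0 CPM, the mutant ones at 53.9, 54.8 and 48.5 CPM, so that every Nr6a1-/- library lay below every wildtype library (-0.50 ± 0.12, FDR = 0.00389). Gdf11 raised Wnt5b by 1.398 ± 0.12 in wildtype (FDR = 2.34e-11) and by 0.72 ± 0.13 in Nr6a1-/- cells (FDR = 8.19e-05). The response was lower by -0.68 ± 0.18 in Nr6a1-/- cells (FDR = 0.0275), a call lost under 8 of 18 alternatives, among them DESeq2 (FDR = 0.0891) and leaving out wildtype d4 replicate 2 (FDR = 0.084).

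Wnt4 and Wnt11, the other non-canonical-type ligands, stayed near the limit of detection. Wnt4 was at 1 to 10 counts in every library, and without the filter none of its comparisons passed, the lowest FDR being 0.0868 for the step from d3 to d4 in Nr6a1-/- cells. Wnt11, which acts on cell movement at gastrulation, was at 0 to 3 counts in every library from d2 to d3. It was at 0, 1 and 0 counts at d3 in Nr6a1-/- cells and 7, 5 and 3 at d4, and at 0, 3 and 0 and then 5, 2 and 3 counts in wildtype. Its rise in Nr6a1-/- cells passed without the filter (FDR = 0.00591), and that in wildtype did not (FDR = 0.642). The genotype difference in this change, 2.38 on the log2 scale without the filter, did not pass either (FDR = 0.753). With Gdf11 there were 6, 4 and 7 counts in wildtype and 6, 10 and 12 in Nr6a1-/- cells, and neither the Gdf11 response nor the genotype difference passed.

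**Figure D4:**
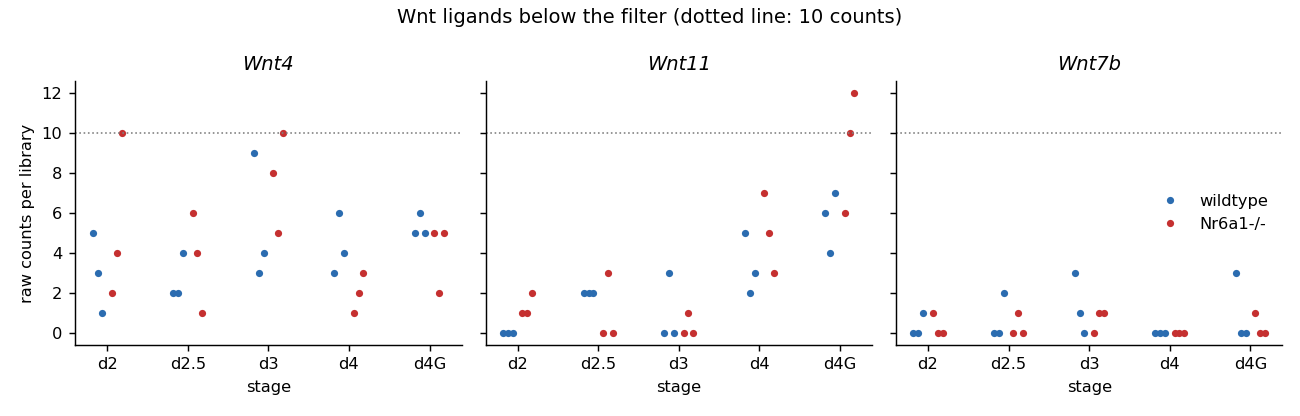
Raw counts per library of Wnt4, Wnt11 and Wnt7b, which did not pass the filter, at 5 stages in wildtype (blue) and Nr6a1-/- (red) cells, with a dotted line at 10 counts. Only 1 library, Nr6a1-/- d4G with 12 counts of Wnt11, lies above the line.

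Wnt6, an epithelial ligand used in either branch, was called lower in Nr6a1-/- cells at d3 and higher at d4. Wildtype libraries held 12.4, 19.3 and 11.1 CPM at d2.5, 62.8, 53.4 and 46.8 CPM at d3, and 10.9, 8.01 and 9.01 CPM at d4. Nr6a1-/- libraries held 8.05, 8.05 and 7.87 CPM at d2.5, 25.3, 28.6 and 25.3 CPM at d3, and 24.7, 27.1 and 18.8 CPM at d4. All Nr6a1-/- libraries lay below the wildtype ones at d2.5 and d3 and above them at d4. At d3 the log2 difference was -1.04 ± 0.15 (FDR = 5.02e-06) and at d4 it was 1.35 ± 0.19 (FDR = 1.18e-06). Wildtype cells lost Wnt6 from d3 to d4 (-2.56 ± 0.17, FDR = 3.14e-14), the change in Nr6a1-/- cells was -0.17 with a 95% interval of -0.52 to 0.18 (FDR = 0.499), and the changes differed by 2.39 ± 0.24 (FDR = 1.44e-08). The difference at d2.5 (-0.83 ± 0.22, FDR = 0.0167) was lost by DESeq2 (FDR = 0.0506), with 2 other settings, and without any 1 of 3 libraries, up to an FDR of 0.307 without wildtype replicate 2.

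With Gdf11 Wnt6 stood at 18.1, 17.1 and 19.4 CPM in the wildtype libraries, against 16.4, 15.9 and 16.7 CPM in the mutant. The groups did not overlap but were close, with a difference of -0.15 with a 95% interval of -0.55 to 0.25 (FDR = 0.754). Gdf11 raised it in wildtype by 0.99 ± 0.20 (FDR = 2.03e-04), while in Nr6a1-/- cells all d4G libraries lay below all d4 libraries with a change of -0.51 ± 0.19 that missed the threshold (FDR = 0.0504). The difference of the responses was -1.50 ± 0.27 (FDR = 5.60e-04) and passed in all 18 alternatives.

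Wnt7a, best known from dorsal limb and neural tissue, was all but absent except in Nr6a1-/- cells at d4. It was at 0 or 1 counts in every library at d2, d2.5 and d3. At d4 wildtype libraries held 0, 3 and 0 counts and Nr6a1-/- libraries 34, 42 and 65 counts, which is 14.7, 20.3 and 27.7 CPM. Wnt7a passed the filter only through these Nr6a1-/- libraries, so the calls below that rest on them were built in by the filter. All 3 wildtype counts came from replicate 2, the library with epiblast markers. Pooled, 141 counts against 3 gave 64.6 as the ratio (95% counting interval 21.7 to 317), and the FDR in the model was 4.43e-11. Without that library wildtype d4 cells were at 0, and Wnt7a was at least 39.3-fold higher in Nr6a1-/- cells, against a limit of 3 counts over the 2 libraries left (FDR = 3.62e-10). From d3 to d4 in Nr6a1-/- cells, 141 counts against 1 gave a ratio of 158 (95% counting interval 27.8 to 6270; FDR = 6.02e-11).

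The level was far lower after Gdf11. Nr6a1-/- d4G libraries held Wnt7a at 1, 2 and 4 counts, all far below the d4 libraries, a log2 change of -4.10 ± 0.45 (FDR = 9.26e-09). In wildtype the 4, 5 and 5 counts at d4G exceeded the 0, 3 and 0 counts at d4, pooled 6.18 to 1 (95% counting interval 1.72 to 33.5; FDR = 0.0179). That call was lost without either of the wildtype d4 libraries at 0, up to an FDR of 0.0871, and without replicate 2 the level at d4G was at least 3.76-fold higher against the same limit (FDR = 0.0032). The responses were opposite in sign and their difference was called in all 18 alternatives (FDR = 2.11e-05). As Wnt7a passed the filter only through the Nr6a1-/- d4 libraries, calls that rest on those libraries were built in by the filter. The difference in the change from d3 to d4 (FDR = 0.0397) was lost in 9 of 18 alternatives. Without wildtype d4 replicate 2 the fitted values of these differences moved from -6.56 to -9.38 and from 6.72 to 9.54, which rest on how the counts of 0 are treated. Wnt7b, the paralogue of Wnt7a, was at 0 to 3 counts in every library and at 0 in all 6 d4 libraries.

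Markers of several cell types moved with the ligands at d4. The 8 mesoderm markers (T, Tbx6, Msgn1, Meox1, Tcf15, Pax1, Foxc2 and Aldh1a2), none at 0 in either d4 group, summed to 191 to 222 CPM in wildtype, against 903 to 950 CPM in the mutant. All 6 that passed the filter were called higher in the mutant, against 9.7% of all genes. In wildtype and mutant Meox1 averaged 4.05 ± 1.03 and 201 ± 29.1 CPM, and Aldh1a2 averaged 12.0 ± 0.815 and 376 ± 8.49 CPM. At d3 the sums were 317 to 351 and 514 to 605 CPM, with Foxc2 at 0 in both genotypes and Meox1 and Pax1 at 0 in wildtype. With Gdf11 they were 241 to 255 and 285 to 312 CPM, with Pax1 at 0 in wildtype. Markers of other cells were called lower in the mutant at d4, where 9.18% of all genes were called lower. Of 7 tested neural markers 4 were lower, and the list summed to 66.6 to 93.9 CPM in wildtype, against 39.4 to 54.1 CPM with Olig2 at 0. Of 6 tested endoderm markers 5 were lower, and the list summed to 139 to 236 CPM, against 73.0 to 82.3 CPM, with Cer1 at 0 in both. Of the 8 epiblast markers 6 were called lower in the full set of libraries. Their sum was 93.1 to 747 CPM in wildtype, the top value being that of replicate 2, against 104 to 106 CPM with Otx2 at 0. Without that library the wildtype sums were 66.6 and 82.8 CPM for neural, 139 and 151 CPM for endoderm and 93.1 and 104 CPM for epiblast markers. The wildtype epiblast sums were then within or below the mutant range, and calls on these markers are not given without that library. The part of these cell types in the differences of Wnt3a, Wnt8a, Wnt5a, Wnt6 and Wnt7a was not tested.

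Over the 10 group means, Pearson correlations of log2 CPM between tested ligands ran from -0.03 (Wnt3 and Wnt7a) to 0.93 (Wnt5b and Wnt6), with 0.90 for Wnt5a and Wnt5b and 0.34 for Wnt3a and Wnt8a. The points share the jump from d2 to later stages, so they are descriptions. Among all tested genes that reached 10 CPM in a group, those most like each ligand over the 10 groups were Kif3b, Cdkn1a and Mdp1 for Wnt3 (0.941, 0.939 and 0.935), Ogfod3, Arid3b and Scamp1 for Wnt3a (0.977, 0.958 and 0.953), and Nt5e, Rtl8b and Scn2b for Wnt8a (0.964, 0.949 and 0.94). Wnt5a was most like Pkig, Zfp697 and the ephrin receptor gene Epha4 (0.986, 0.985 and 0.984), and Wnt5b was most like Evx1os, Coa5 and the posterior homeobox gene Evx1 (0.987, 0.985 and 0.982). For Wnt6 they were Elovl2, Ilvbl and Atp13a2 (0.969, 0.967 and 0.96), and for Wnt7a Inpp4a, Cdkn2d and Zfp385b (0.934, 0.92 and 0.907).

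Among the 9 other Wnt genes only Wnt8b and Wnt10a passed the filter, and Wnt8b, a ligand of neural tissue, was the only call between the genotypes. It was at 13, 13 and 21 counts in wildtype and 1, 0 and 0 counts in Nr6a1-/- cells at d4 (FDR = 2.99e-05), where 9.18% of all genes were lower. Wnt8b passed the filter only through the wildtype d4 libraries, so this call was built in by the filter. Of the genes that make Wnt proteins fit for secretion, Porcn, which attaches the lipid, and Wls, which carries the ligand to the surface, neither was called between the genotypes at any stage. The change from d2 to d3 was called higher in Nr6a1-/- cells for 1 of these 2, against 1.19% of all genes. Gdf11 lowered Wls in wildtype cells by -0.54 (FDR = 4.26e-04).

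**Figure D5:**
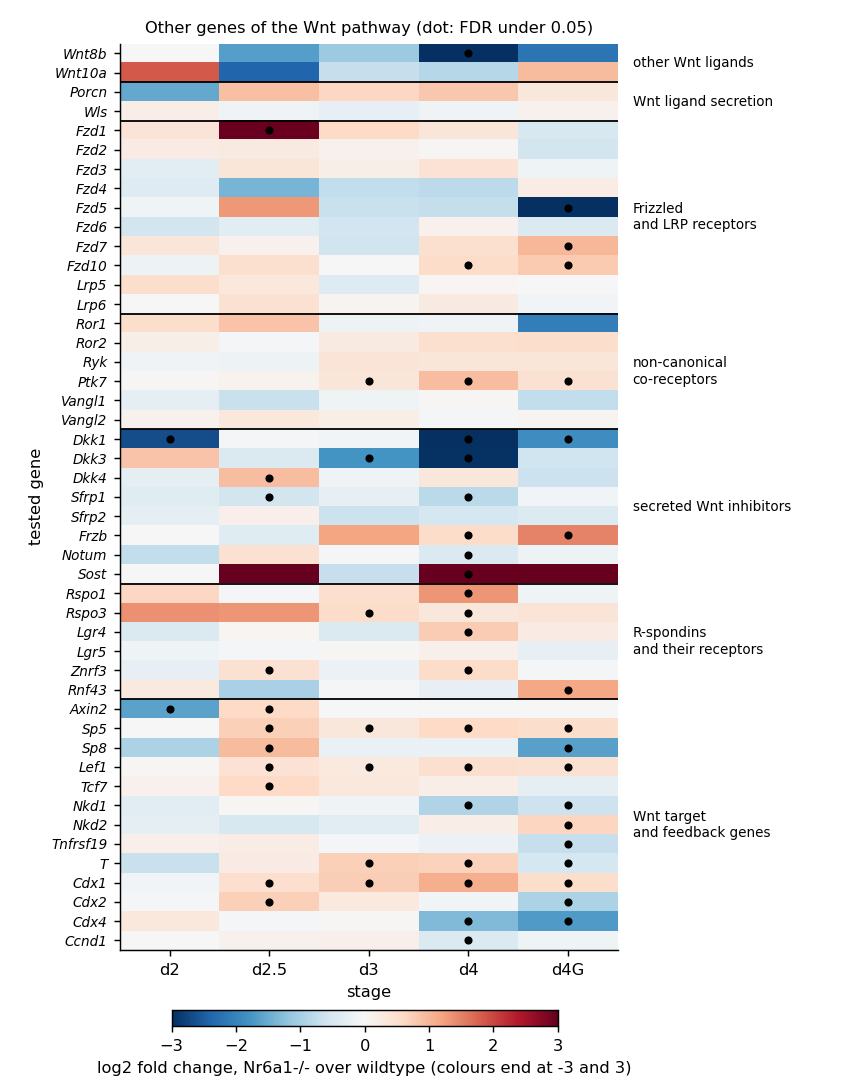
Log2 fold change of Nr6a1-/- over wildtype cells at 5 stages for the tested genes of 7 lists of the Wnt pathway, in colour from -3 (blue) to 3 (red), with a dot where the FDR was under 0.05. Dkk1 carries a dot at d2, d4 and d4G in blue, and Sp5 and Lef1 carry dots in red from d2.5 to d4G.

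Of the 12 Frizzled and LRP receptor genes 10 were tested. Between the genotypes 0 of them were called at d2, where 1.35% of all genes were higher and 2.72% lower, and 0 at d3 (4.47% and 6.3%). At d2.5, against 2.86% and 3.59%, 1 was higher (Fzd1, 35 counts against 3, FDR = 0.00234). At d4, against 9.7% and 9.18%, 1 was higher (Fzd10, 0.56, FDR = 0.0187), which is near the share over all genes. At d4G, against 3.28% and 4.63% of all genes, 2 were higher (Fzd7 by 1.01 and Fzd10 by 0.80) and 1 lower (Fzd5, 7.96 ± 2.08 CPM in wildtype, against 0.849 ± 1.47 CPM in the mutant). Among 6 co-receptors of the non-canonical branch, Ptk7, which acts in planar cell polarity, was the only call between the genotypes at any stage. It was higher in Nr6a1-/- cells by 0.35 at d3, 0.92 at d4 and 0.47 at d4G, where 4.47%, 9.7% and 3.28% of all genes were higher. Gdf11 raised Ptk7 by 0.90 in wildtype and 0.44 in Nr6a1-/- cells, where 14.3% and 8.45% of all genes were called higher. Of the 6 it lowered 1 in wildtype and 0 in Nr6a1-/- cells, against 14.5% and 9.59% of all genes.

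Secreted inhibitors changed in both directions. Of 14 listed 8 were tested, and in the mutant at d4 they gave 2 calls up and 4 down, where 9.7% and 9.18% of all genes were called. Dkk1, which blocks the LRP co-receptors, was at 93, 117 and 121 counts in wildtype and 8, 11 and 10 counts in Nr6a1-/- cells at d4 (log2 fold change -3.05, FDR = 1.06e-14). It was lower also at d2, at 5, 5 and 4 against 1, 0 and 1 counts (FDR = 0.0313), and at d4G (-1.86, FDR = 1.85e-13), while the groups overlapped in CPM at d2.5 and d3. Gdf11 raised Dkk1 by 1.48 in wildtype and 2.67 in Nr6a1-/- cells, and these responses differed by 1.19 (FDR = 0.00469), opposite in sign to the 4 ligands whose responses differed. Sost, another LRP blocker, was at 1, 0 and 0 counts in wildtype and 24, 10 and 25 in Nr6a1-/- cells at d4 (FDR = 4.66e-06), and Dkk3 at 14 counts in all against 1 (FDR = 0.0185). Sost passed the filter only through the Nr6a1-/- d4 libraries, so its call at d4, 1 of the 2 up, was built in by the filter.

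R-spondins bind Lgr receptors and clear the ligases Znrf3 and Rnf43, which remove Frizzled from the surface. Of 6 tested genes 4 were higher in Nr6a1-/- cells at d4 and 0 lower, against 9.7% and 9.18% of all genes, led by Rspo1 (1.31, FDR = 0.0237), Lgr4 (0.77, FDR = 0.00302) and Znrf3 (0.56, FDR = 0.00268). Rspo3 was the only call at d3 (0.54, FDR = 0.00503), where 4.47% of all genes were higher. It averaged 71.3 ± 1.96 CPM in wildtype, against 104 ± 6.37 CPM in the mutant.

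Of the 13 target and feedback genes, all tested, only 1 was called between the genotypes at d2. It was lower in the mutant, where 1.35% of all genes were higher and 2.72% lower. That was Axin2, the general feedback gene of β-catenin, at 24, 21 and 28 against 7, 9 and 9 counts (-1.60, FDR = 1.95e-04). After 12 h of CHIR, 7 were higher and 0 lower, against 2.86% and 3.59% of all genes, with Sp8 (0.94), Sp5 (0.71) and Cdx2 (0.71) the furthest. At d3, 4 were higher and 0 lower, against 4.47% and 6.3%, among them Cdx1 (0.73) and T (0.71). At d4, 4 were higher and 3 lower, against 9.7% and 9.18%, with Cdx1 at 1.10 and Cdx4 at -1.33. At d4G 4 were higher and 6 lower, against 3.28% and 4.63%, with Cdx4 at -1.71 and Sp8 at -1.63. T is in this list and among the mesoderm markers. Gdf11 raised 6 and lowered 3 of the 13 in wildtype, against 14.3% and 14.5% of all genes, and raised 4 and lowered 4 in Nr6a1-/- cells, against 8.45% and 9.59%. Nkd2, an inhibitor of Dishevelled, rose furthest in both, by 3.37 and 3.82. At d4, where 5 of the ligands were higher in the mutant, Axin2 averaged 148 ± 9.47 CPM in wildtype, against 146 ± 13.5 CPM.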

How the data were processed

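Libraries were primed at the poly(A) tail, so counts come from transcript 3′ ends. Per the labels, STAR and edgeR were used and the genome build was mm10. Versions, the counting tool and the treatment of molecular identifiers are not given in the sources used here. The authors deposited raw counts per gene for 30 libraries of 10 groups, with 3 replicates each, and nothing in the labels says whether replicates were separate cultures, so p-values measure only the spread between these samples. Depth ran from 1570714 to 3688197 counts.

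Genes with over 10 counts and over 2 CPM in at least 2 libraries of a group were kept (12149, holding at least 99.2% of each library's counts). A model of 10 groups with 20 residual degrees of freedom was fitted in edgeR 4.0.16 (R 4.3.3; TMM factors, quasi-likelihood test, 2-sided), and p-values were adjusted by Benjamini-Hochberg over all genes for each of 16 comparisons. Pooled ratios carry exact 95% intervals that cover counting error only. Alternatives were RLE factors, no factors, no filter, DESeq2 1.42.0, only the groups compared, a replicate block and leaving out each library. Named were all 10 ligands, up to 3 called genes a list with the largest fold change, and the 3 genes most like each tested ligand. The ligands and lists were chosen with earlier results of these data known. Other genes named (Axin2 at d4, Nr6a1, Fgf5, T, Sox2, Meox1, Aldh1a2, Porcn, Lef1) and the stages shown for listed genes were chosen after their values were seen. Levels in different genes were not compared.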

Additional observations from a re-analysis of the deposited data

Results flagged for a closer look

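For 8 results a test of the difference itself separated the genotypes, with an interaction term in edgeR's quasi-likelihood model over all 12149 genes. Of these, 4 concern the response to Gdf11, which was lower in Nr6a1-/- than in wildtype cells by -1.61 on the log2 scale for Wnt3a (FDR = 0.00832), by -0.68 for Wnt5b (FDR = 0.0275), by -1.50 for Wnt6 (FDR = 5.60e-04) and by -6.56 for Wnt7a (FDR = 2.11e-05). The other 4 concern the change from d3 to d4, which was higher in Nr6a1-/- cells by 1.56 for Wnt3a (FDR = 0.00267), by 3.39 for Wnt8a (FDR = 1.65e-04), by 2.39 for Wnt6 (FDR = 1.44e-08) and by 6.72 for Wnt7a (FDR = 0.0397). The Wnt7a values are fitted against groups with 1 to 3 counts and depend on how such counts are treated (-9.38 and 9.54 without wildtype d4 replicate 2, which held all 3 wildtype d4 counts), and the d4 libraries are shared by both sets of results. Wnt7a also entered the test only through the Nr6a1-/- d4 libraries, so its results here were built in by the filter. The Wnt5b call was lost in 8 of 18 alternatives, and that of Wnt7a from d3 to d4 in 9 of 18.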

How the results depend on the processing

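Of 112 results on the 7 tested ligands in 16 comparisons 64 were called, and 54 of these held under every alternative, 10 were lost under at least 1, and 0 changed sign. Of 48 results not called 5 passed under at least 1 alternative, among them the change of Wnt3a from d3 to d4 in Nr6a1-/- cells (without normalisation factors, FDR = 0.0352; only the groups compared, FDR = 0.0248) and the genotype difference in the change of Wnt5a from d3 to d4, which passed under 4. The number of ligands called between the genotypes at d2.5 was 2 and came to 1 without the filter, with DESeq2 and with only the groups compared, and to 1 to 2 when libraries were left out. The replicate block, with the replicate number as a term, changed 0 of the 112 calls and moved the counts over all genes by 1.01 to 1.13 times. Same-numbered libraries did not deviate together (r of -0.111 to 0.163 over 13 pairs of groups, with 0 pairs over 0.1 throughout), so the number is not taken as a pairing. Fitting only the groups compared lowered the genes called from 2294 to 1398 between the genotypes at d4, from 323 to 212 for the difference in the Gdf11 response and from 695 to 440 for the difference in the change from d3 to d4. Without Nr6a1-/- d4 replicate 1 the latter counts were 830 and 1147, without its replicate 3 they were 205 and 447, and the d4 count was 1495. At d2 and d2.5 leaving out a library lowered 494 and 784 genes to as few as 299 and 478. Sign changes occurred in 12 results that were not called (lowest FDR 0.297). Over all alternatives, the log2 difference at d2 ran from -0.73 to 0.11 for Wnt8a, -0.80 to 0.16 for Wnt5a and -0.14 to 1.27 for Wnt5b. At d2.5 it ran from -0.53 to 0.73 for Wnt3a, -0.065 to 0.45 for Wnt8a and -0.034 to 0.10 for Wnt5b. The Gdf11 response of Wnt8a in wildtype ran from -3.76 to 0.43, and the difference of the responses from -3.15 to 1.14 for Wnt8a and -0.074 to 0.34 for Wnt5a. The change of Wnt8a from d2.5 to d3 in wildtype ran from -0.53 to 0.083, that of Wnt7a from d3 to d4 in wildtype from -2.72 to 0.67, and the genotype difference in the change of Wnt5b from d2 to d3 from -0.70 to 0.71. The cause of these changes was not tested. Depth limits Wnt4, Wnt7b, Wnt11, every ligand at d2, and Wnt8a and Wnt7a in wildtype cells at d4 and d4G, where levels were near 3 counts a library.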
